A study of Mus musculus with 8 samples.

Results

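The SoxB1 and SoxC genes of the mouse lens are the subject here: Sox1, Sox2 and Sox3 (SoxB1) and Sox4, Sox11 and Sox12 (SoxC), 6 of the 49595 genes that RefSeq places on the chromosomes of GRCm38. They were chosen by name, and the window of each gene was its gene body with 50 kb on each side. Of the 185271 regions left when the peaks of all lists were merged, 165 overlapped one of these 6 windows. The data were ATAC-seq peaks, which mark DNA that a transposase could reach in nuclei and so report open chromatin. Lenses of CD1 mice, several pooled per sample, had been micro-dissected into lens epithelium and lens fibers at an embryonic day, E14.5, and shortly after birth, P0.5. Each of these 4 groups had 2 libraries and carried no allele or treatment, and the authors deposited 1 pooled peak list per group. A dissected fiber mass holds fiber cells of several ages, and the dissection limits how pure either tissue is.

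Sox proteins carry an HMG box that binds and bends DNA in the minor groove, and they act with partner factors. Sox2 works with Pax6 in the induction of the lens, and Sox1 is needed for the elongation of fiber cells and for the gamma-crystallin genes. Sox3 resembles both in sequence and is best known from the pituitary and the nervous system. Sox4, Sox11 and Sox12 are known from progenitor cells and young neurons, and Sox11 also from the early lens and the eye cup.

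At E14.5 the list of the epithelium held 100003 peaks and that of the fibers 123743, and at P0.5 they held 58592 and 62995. Of these, 80.5% to 87.9% had a q value under 0.001, except in P0.5 fibers, where 48.9% did. Peaks were placed by their fold enrichment over background, ranked within the list, and the rank percent is the rank divided by the number of peaks, so that a low percent marks a strong peak. The 4 lists held between 102 and 506 different values of fold enrichment, so many peaks shared a rank. With 1 list per group there was no replicate spread and no test, and the 95% Wilson intervals given with shares cover counting error only. The tissue labels were checked on marker genes. The best promoter or gene body peak of all 5 fiber markers (Crybb1, Mip, Cryaa, Bfsp1 and Bfsp2) ranked better in fibers than in epithelium at both stages. In E14.5 fibers 100% of the gene body of Crybb1, a crystallin gene, lay under peaks, against 5.43% in the epithelium. Of the 3 epithelial markers, Foxe3 and Cdh1 ranked better in epithelium at both stages, although peaks of E14.5 covered more of the body of Foxe3 in fibers (79.6%) than in epithelium (67.0%). The best promoter or gene body peak of Pax6, a single peak per list, went the other way, at 0.479% in fibers and 3.73% in epithelium of E14.5. At P0.5 it ranked at 6.31% in fibers and 6.64% in epithelium. Peaks covered 72.9% of the body of Pax6 in E14.5 fibers and 42.3% in E14.5 epithelium, and 16.1% and 17.2% at P0.5.

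The bases just before the start sites are shown because each of these promoters held a peak in every list. They are the 250 bases upstream of the RefSeq start, in GRCm38.p6 and read along the gene: Sox1 at chr8:12395269-12395518 (plus strand), Sox2 at chr3:34649745-34649994 (plus), Sox4 at chr13:28953700-28953949 (minus), Sox11 at chr12:27342719-27342968 (minus) and Sox12 at chr2:152398047-152398296 (minus). Capitals mark a Sox core on either strand, which is ACAAAG or else ACAATG. They also mark CCAAT, and with it the inner part of a Maf site, TGCTGA. Sox3 is not shown.
Sox1 promoter: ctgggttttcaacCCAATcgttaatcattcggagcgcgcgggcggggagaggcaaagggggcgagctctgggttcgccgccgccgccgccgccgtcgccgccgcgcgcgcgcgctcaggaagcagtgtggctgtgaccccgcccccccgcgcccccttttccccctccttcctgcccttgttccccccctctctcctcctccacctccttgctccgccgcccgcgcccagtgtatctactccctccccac
Sox2 promoter: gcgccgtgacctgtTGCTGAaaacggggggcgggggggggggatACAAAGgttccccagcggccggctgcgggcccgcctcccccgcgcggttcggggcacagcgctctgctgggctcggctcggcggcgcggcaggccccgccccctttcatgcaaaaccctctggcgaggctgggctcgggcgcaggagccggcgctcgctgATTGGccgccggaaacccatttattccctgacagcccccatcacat
Sox4 promoter: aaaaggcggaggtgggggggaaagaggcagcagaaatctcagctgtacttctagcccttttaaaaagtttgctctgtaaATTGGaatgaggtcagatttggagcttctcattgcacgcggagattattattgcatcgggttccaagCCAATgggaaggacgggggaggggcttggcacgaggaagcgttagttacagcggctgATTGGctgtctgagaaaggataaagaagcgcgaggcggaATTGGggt
Sox11 promoter: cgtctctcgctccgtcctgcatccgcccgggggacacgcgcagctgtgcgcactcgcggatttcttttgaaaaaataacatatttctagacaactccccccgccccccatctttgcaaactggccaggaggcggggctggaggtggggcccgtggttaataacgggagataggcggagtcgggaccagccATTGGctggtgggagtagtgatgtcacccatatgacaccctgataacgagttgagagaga
Sox12 promoter: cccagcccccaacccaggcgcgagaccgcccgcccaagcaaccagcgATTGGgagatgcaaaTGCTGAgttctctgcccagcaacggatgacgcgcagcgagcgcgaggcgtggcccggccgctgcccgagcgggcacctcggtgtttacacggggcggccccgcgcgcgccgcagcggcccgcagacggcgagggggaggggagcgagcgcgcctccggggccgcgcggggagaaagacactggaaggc

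All 5 promoters held CCAAT, the letters that the factor NF-Y reads, and Sox4 held it in 4 places. Among all 32851 promoters of this length in the same RefSeq table, 33.8% held CCAAT. The Sox2 promoter alone held a Sox core, at bases -206 to -201 from the start, where 25.2% of all promoters held one. ATGCAAA, letters that POU factors read, stood in Sox2 at bases -99 to -93 and in Sox12 at bases -195 to -189, against 4.12% of all promoters. GGGCGG stood in 4 of the 5, all but Sox4, against 32.7% of all promoters, and TGCTGA in Sox2 and Sox12, against 16.1%. None of the 5 held TATAAA, which 12.4% of all promoters did. Their GC content was 50.8% in Sox4, below the median of 52.4% over all promoters, and 58.0% to 74.4% in the other 4. CCAAT and ATGCAAA were searched after the sequences had been seen, and a match of letters is a description of the sequence and not a site in use.

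Away from the promoters, a strong region at each of Sox1, Sox2, Sox4 and Sox12 that all 4 lists called is shown by the 200 bases around its strongest summit. These lie on the plus strand of GRCm38 at chr8:12400820-12401019 (Sox1, 5.40 kb downstream of the start), chr3:34664153-34664352 (Sox2, 14.3 kb downstream), chr13:28959600-28959799 (Sox4, -6.00 kb) and chr2:152406146-152406345 (Sox12, -8.20 kb). The Sox1 and Sox2 regions lie in introns of the noncoding genes Sox1ot and Sox2ot, the Sox4 region meets an exon of the predicted noncoding gene Gm46405, and the Sox12 region lies between genes. Capitals mark the same letters as above.
Sox1 downstream region: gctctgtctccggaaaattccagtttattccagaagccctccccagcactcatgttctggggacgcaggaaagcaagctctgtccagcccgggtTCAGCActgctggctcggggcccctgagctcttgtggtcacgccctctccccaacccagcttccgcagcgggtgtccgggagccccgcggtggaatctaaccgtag
Sox2 downstream region: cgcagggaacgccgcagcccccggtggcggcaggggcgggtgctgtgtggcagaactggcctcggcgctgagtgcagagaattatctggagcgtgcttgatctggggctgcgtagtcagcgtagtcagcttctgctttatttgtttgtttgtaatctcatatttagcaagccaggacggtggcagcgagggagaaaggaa
Sox4 upstream region: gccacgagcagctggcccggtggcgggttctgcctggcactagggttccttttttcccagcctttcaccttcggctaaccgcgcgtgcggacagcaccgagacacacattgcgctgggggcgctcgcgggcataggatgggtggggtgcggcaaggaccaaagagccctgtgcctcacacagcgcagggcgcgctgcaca
Sox12 upstream region: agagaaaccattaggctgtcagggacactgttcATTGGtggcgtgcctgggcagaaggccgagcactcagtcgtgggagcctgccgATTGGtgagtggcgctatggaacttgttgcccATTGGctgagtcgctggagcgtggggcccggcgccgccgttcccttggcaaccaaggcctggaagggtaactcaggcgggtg

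In this set the Sox12 region held 3 copies of CCAAT, and the Sox1 region held TGCTGA on the minus strand, with its leftmost base 6 bases before the summit. CCAAT stood within 200 bp around the summit in 20.8% of all regions and TGCTGA in 23.1%. No Sox core stood in any of these 4 stretches.

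The 6 windows differed widely in how much open chromatin they held. Sox1 had 61 merged regions and Sox2 had 56, against a median of 14 over the windows of 21774 protein-coding genes. That put Sox1 at the 96.5th percentile of coding genes and Sox2 at the 95.3rd. Sox12 had 29 regions, at the 76.7th percentile. Sox3, Sox4 and Sox11 stood below the median with 5, 8 and 6 regions. Of the 165 regions, 82 lay in the body of another gene, 50 between genes, 13 at a member's promoter (within 2 kb of its start), 5 elsewhere in a member's body and 15 at the promoter of another gene.

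**Figure D1:**
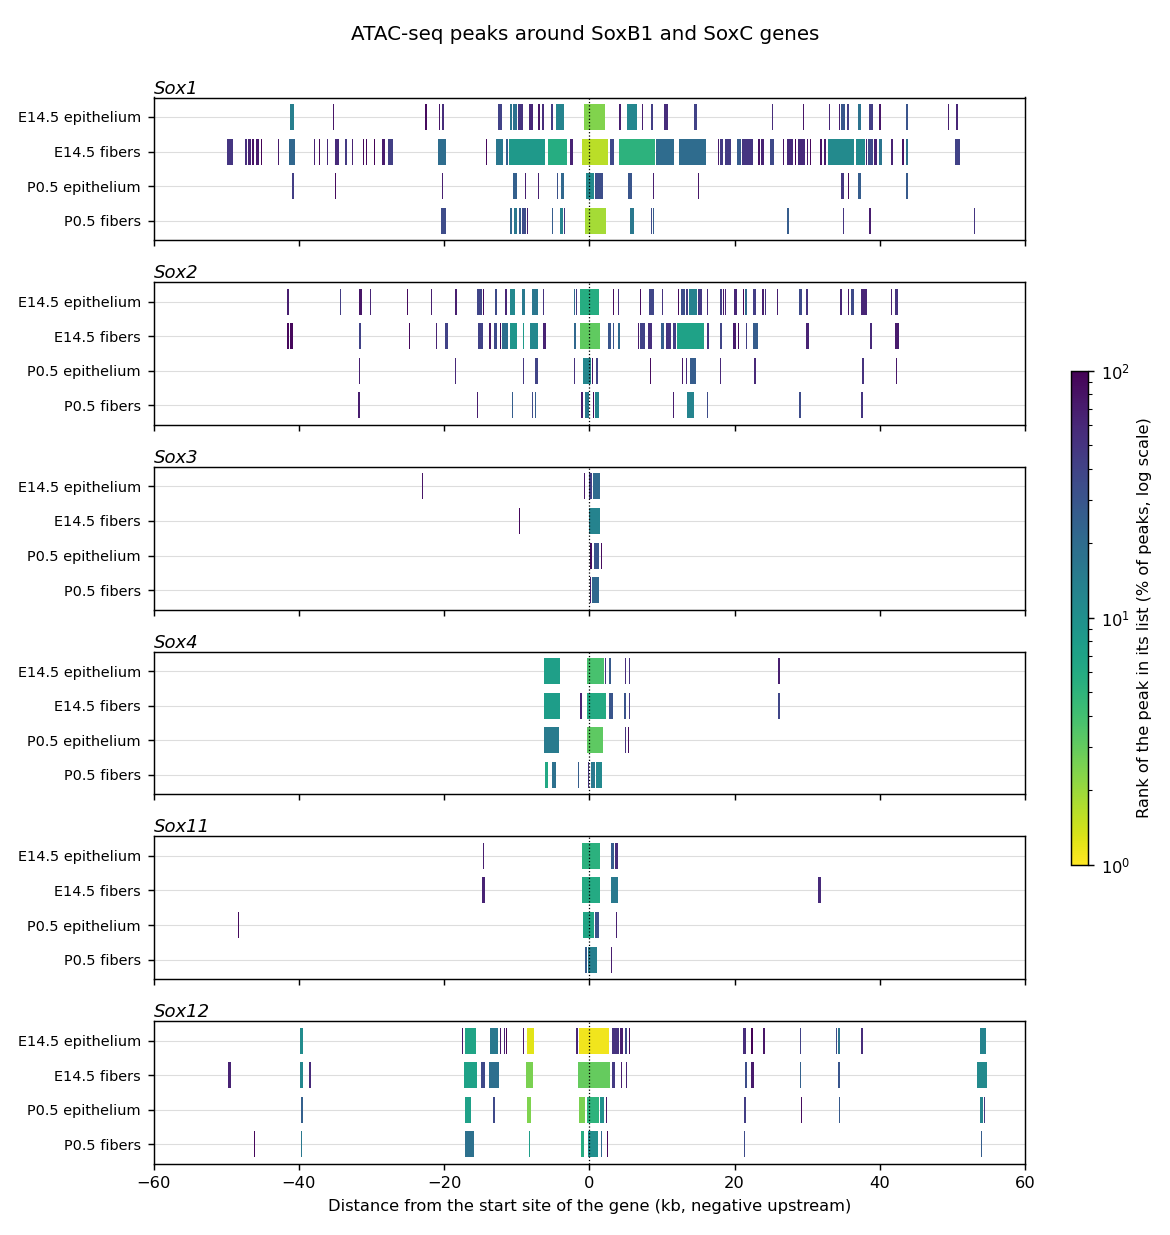
Peaks of the 4 lists around each gene, by distance from its start site in kb (negative upstream), each bar as wide as the peak and coloured by its rank in the list in percent on a log scale. Sox1 and Sox2 hold 61 and 56 merged regions, and the other genes fewer. The longest run of wide peaks is that of Sox1 in E14.5 fibers.

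The share of a window that peaks covered separated the genes further. At E14.5 peaks covered 15.0% of the Sox1 window in epithelium and 45.9% in fibers, and at P0.5 they covered 5.65% and 7.18%. For Sox2 the same 4 shares were 16.5%, 20.2%, 4.60% and 3.79%. Both windows were widest covered in E14.5 fibers and least at P0.5, and in every list they exceeded the medians of coding genes, which were 2.36%, 3.55%, 1.41% and 1.16% in the same order. Sox12 had 12.8%, 12.6%, 5.87% and 3.74%, with both tissues of E14.5 close together. Sox4 had 5.19%, 6.13%, 4.41% and 2.41%, and Sox11 had 3.17%, 3.81%, 2.40% and 1.45%. Sox3 was the least covered, with 1.63%, 1.77%, 1.04% and 0.984%, below the median of coding genes in each list. All 6 windows were covered less at P0.5 than at E14.5 in the same tissue, as the coding genes were at the median.

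**Figure D2:**
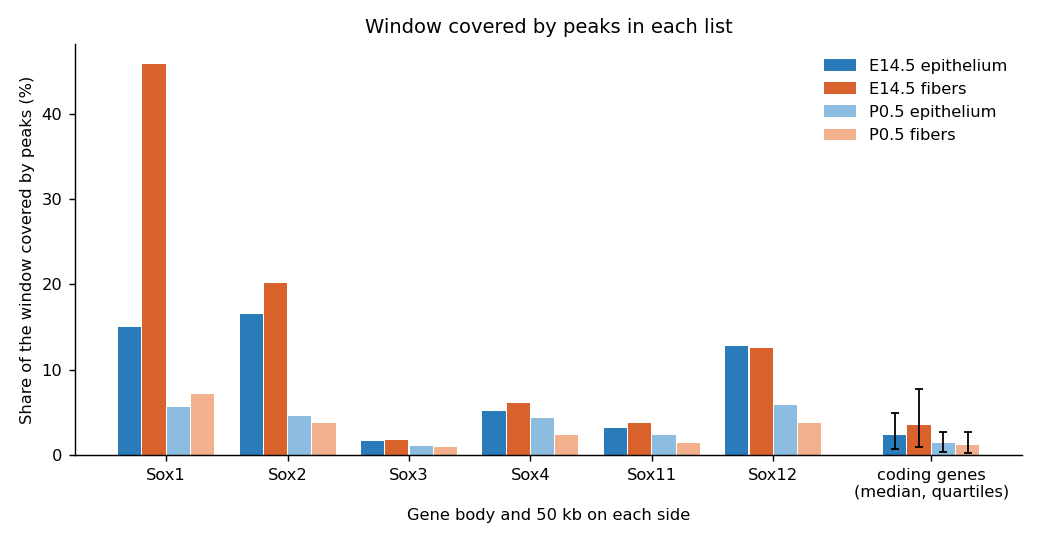
Share of each window covered by peaks, in percent, in the 4 lists, with bars from 0. At the right stand the median coding gene and, as black lines, its quartiles over 21774 coding genes. Sox1 in E14.5 fibers reaches 45.9%, and no other bar passes 20.2%.

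Sox1, the gene for fiber elongation, stood out in E14.5 fibers. Only 12 of the 21774 coding genes had a larger share of their window covered in that list. The 45.9% in E14.5 fibers was 3.06 times the 15.0% in E14.5 epithelium, where the median of 18172 coding genes covered in both lists was 1.43 and 96.2% of them had this ratio or a lower one. At P0.5 the fibers had 1.27 times the share of the epithelium, and from E14.5 to P0.5 the share in fibers went to 0.157 of its value, against a median of 0.365. The cover was not confined to the gene: in E14.5 fibers 79.9% of the 10 kb before the start, 88.2% of the 10 kb after it and 68.9%, 57.5% and 68.4% of the next bins of 10 kb were covered. In E14.5 epithelium the same 5 bins held 38.1%, 43.3%, 8.83%, 4.19% and 24.0%. Beyond 40 kb the fiber value went down to 12.3%, while on the upstream side 31.0% of the outermost bin was still covered.

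**Figure D3:**
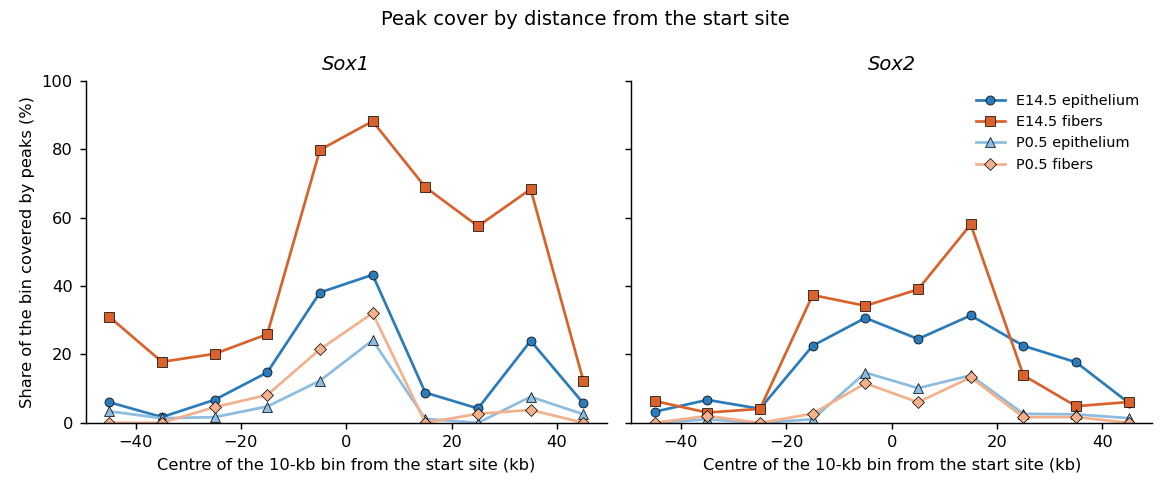
Share of each 10-kb bin covered by peaks, in percent, by the centre of the bin from the start site in kb, for Sox1 and Sox2, with 1 line per list. In E14.5 fibers 5 neighbouring bins of Sox1 are covered over 57.5% to 88.2%, and for Sox2 the highest bin, at 58.0%, is the one from 10 to 20 kb downstream.

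The widest Sox1 peak in E14.5 fibers measured 4959 bp, with its summit at -10.1 kb near the start of Sox1ot, and 0.0800% of the peaks in that list were as wide or wider. In epithelium the promoter peak of Sox1 had rank 2413 at E14.5 (2.41%) and 6609 at P0.5 (11.3%), and in fibers it had rank 1980 at E14.5 (1.60%) and 1177 at P0.5 (1.87%). It was thus among the strong peaks of 3 lists, while in P0.5 epithelium it lay close to the median of coding genes with a promoter peak, 44.3% of which ranked better. The 6 regions of Sox1 called in all 4 lists had summits at -20.1, -10.1, -3.73, -0.015, 5.40 and 35.1 kb. Of all regions called in one or both E14.5 lists, 40.1% were in fibers only and 19.7% in epithelium only. Of the 60 such regions at Sox1, 39 were called in fibers only (65%), 3 in epithelium only (5%) and 18 in both. The regions of fibers only were mostly weak, with a median rank percent of 64.1%, against 19.0% for those shared with epithelium, and 25 of the 39 had a q value under 0.001. Within 10 kb of the window's edge lay 11 regions inside it and 6 outside it, so the cluster does not end at the chosen border.

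Sox2, a gene of lens induction, had its regions spread over both sides of the gene, most of them in noncoding genes such as Sox2ot, inside which Sox2 lies. At E14.5 the epithelium had 48 peaks and the fibers 37, and at P0.5 they had 17 and 15, so that at E14.5 the epithelium had more peaks and the fibers wider ones. The median width was 214.5 bp in E14.5 epithelium and 386 bp in E14.5 fibers, where the list medians were 226 bp and 298 bp. The broadest was a peak of 3748 bp in E14.5 fibers at 14.3 kb downstream, whose region ranked at 13.3%, 7.10%, 26.3% and 12.6% in the 4 lists. That region, the promoter and the regions at -31.6 and -7.27 kb were the 4 called in every list. In the bins from 20 to 40 kb downstream the order of the E14.5 lists turned: 22.5% and 17.7% were covered in epithelium and 13.9% and 4.85% in fibers. The covered share in epithelium went from 16.5% at E14.5 to 4.60% at P0.5, a ratio of 0.279 that only 2.77% of coding genes matched or undercut, around a median of 0.566. In fibers the ratio was 0.188, at the 11.7th percentile.

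Sox3, the SoxB1 gene on the X chromosome, had 5 regions, of which 1 was called in all 4 lists and 4 in a single list. The intervals, 3.62% to 62.4% and 37.6% to 96.4%, hold the shares of all regions, 10.9% and 59.5%. The shared region, 1639 bp long, lay over the gene itself, with its strongest summit 0.965 kb after the start. At E14.5 its peak ranked at 20.9% in epithelium and 12.7% in fibers, and at P0.5 at 29.6% and 21.4%, weaker in every list than the promoter peak of any other member. Between 72.4% and 80.4% of coding genes with a promoter peak ranked better. The 2 regions between genes, at -9.70 and -23.0 kb, were called only in E14.5 fibers and only in E14.5 epithelium, at rank percents of 90.1% and 77.7%. Although the window was nearly empty, 48.6% to 74.4% of the short gene body was covered, at or above the 98.5th percentile of coding genes in each list.

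Sox4 and Sox11, which act in progenitor cells, had few regions. Sox4 had 8 regions, and the strongest away from the promoter was a region of 2254 bp. Its summit lay at -6.00 kb in P0.5 fibers and at -6.04 kb in P0.5 epithelium, but at -4.28 and -4.29 kb in both tissues of E14.5, and the bases printed above are those around the summit of P0.5 fibers, where it ranked best. It was called in all 4 lists at rank percents of 7.60%, 7.90%, 15.1% and 6.31%, and in P0.5 fibers it ranked ahead of the Sox4 promoter itself, at rank 3973 against 7161. The promoter peak had rank 3817 in epithelium (3.82%) and 7552 in fibers (6.10%) at E14.5, and 1830 (3.12%) and 7161 (11.4%) at P0.5. The covered share of the Sox4 window changed least in epithelium, from 5.19% to 4.41%, a ratio of 0.850 at the 91.5th percentile of coding genes. Sox11 had 6 regions: the promoter and one at 3.09 kb inside the gene were called in all 4 lists, and 3 of the other 4 in a single list. These shares, 33.3% (9.68% to 70.0%) and 50% (18.8% to 81.2%), stood against 10.9% and 59.5% of all regions. The Sox11 promoter peak ranked at 5.31%, 6.10%, 6.64% and 14.0%, and the inner region at 26.4%, 15.6%, 58.5% and 69.2%. In epithelium its covered share kept 0.757 of the E14.5 value, and in fibers both genes stood near the median of coding genes, at 0.393 for Sox4 and 0.380 for Sox11 against 0.365.

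Sox12, the third SoxC gene, lies in a gene-rich stretch, and 8 of its 29 regions were at promoters of neighbours such as Trib3, Nrsn2 and Zcchc3. Its promoter peak had rank 1099 in epithelium (1.10%) and 3658 in fibers (2.96%) at E14.5, and 1488 (2.54%) and 3586 (5.69%) at P0.5. Its summit lay -0.873 to -0.915 kb from the start in the 4 lists. The region between genes at -8.20 kb was nearly as strong, with rank percents of 1.22%, 2.54%, 2.42% and 7.65%, and in E14.5 fibers and P0.5 epithelium it ranked ahead of the promoter. The covered share of the window in E14.5 fibers was 0.985 of that in epithelium, a ratio above that of only 9.04% of coding genes, whose median was 1.43. At E14.5, 11 regions were called in epithelium only (40.7%), 3 in fibers only (11.1%) and 13 in both, an order opposite to that at Sox1. Of all regions 19.7% were in epithelium only and 40.1% in fibers only.

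Regions were next compared between lists to see which were called at one stage or in one tissue only. Over the 6 windows, 100 of 165 regions were called in epithelium of E14.5 (60.6%, interval 53.0% to 67.7%), where 49.4% of all regions were. In fibers of that stage 123 were called (74.5%, 67.4% to 80.6%), against 66.1% of all regions. At P0.5 the epithelium had 44 (26.7%, 20.5% to 33.9%), against 28.0% of all regions, and the fibers had 32 (19.4%, 14.1% to 26.1%), against 30.0%. The sums of E14.5 hid unlike genes: Sox1 had 93.4% of its regions called in fibers and 34.4% in epithelium, whereas Sox12 had 55.2% and 82.8%, and Sox2 had 66.1% and 76.8%. The low share in P0.5 fibers came near that of all regions with peaks of q under 0.001 alone, at 17.0% against 19.9%, and with a flank of 10 kb in place of 50 kb it turned, at 36.2% against the 30.0% of all regions. With only the strongest 58592 peaks of each list it was 37.8% against 45.5%. The share in P0.5 epithelium was then 53.7%, above the 45.6% of all regions. In the full lists 21 regions (12.7%) were shared by all 4, near the 10.9% of all regions, and 94 regions (57.0%) were called in a single list, near the 59.5% of all. The share in all 4 lists was 29.8% with the flank of 10 kb, well above that 10.9%. With the strongest 58592 peaks of each list it was 22.0%, against 16.4% of all regions. All 6 members had a region called in every list, and it included the promoter in each case.

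Between both tissues of E14.5, the members had 35 regions in epithelium only (22.2%), 58 in fibers only (36.7%) and 65 in both, where 19.7% of all regions were in epithelium only and 40.1% in fibers only. With only the strongest 58592 peaks of each list both comparisons with all regions turned, at 16.9% against 20.6% and 28.2% against 24.8%. In the full lists the genes were unlike in these counts. Sox1 had 3 regions in epithelium only and 39 in fibers only, whereas Sox2 had 19 regions in epithelium only and 13 in fibers only, and Sox12 had 11 and 3. At P0.5, 22 regions were in epithelium only (40.7%), 10 in fibers only (18.5%) and 22 in both, against 35.2% and 39.7% of all regions. With peaks of q under 0.001 alone all regions had the order of the members, with 51.1% in epithelium only and 18.4% in fibers only, beside 45.2% and 11.9% of the members. In the full lists each of the 6 genes had more regions in P0.5 epithelium only than in P0.5 fibers only, by 5 to 3 at Sox1, 8 to 5 at Sox2 and 4 to 1 at Sox12. At Sox3, Sox4 and Sox11 the counts were small, 1 to 0, 2 to 1 and 2 to 0. With peaks of q under 0.001 alone the order did not hold for Sox3 (0 and 0) and Sox4 (1 and 1).

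Over time, 61 regions of epithelium were called at E14.5 only (58.1%), 5 at P0.5 only (4.76%) and 39 at both stages, where 49.7% and 11.2% of all regions were called at one stage only. In fibers 96 were called at E14.5 only (75%), 5 at P0.5 only (3.91%) and 27 at both, against 62.6% and 17.6%. Sox2 had 30 regions in E14.5 epithelium only and 0 in P0.5 epithelium only. Sox1 had 49 in E14.5 fibers only and 1 in P0.5 fibers only. In epithelium Sox11 alone had more regions at P0.5 only than at E14.5 only, 2 against 1. With peaks of q under 0.001 alone Sox11 had 1 of each. At that threshold 77.9% of the member regions of fibers were called at E14.5 only and 1.92% at P0.5 only, where all regions had 74.3% and 6.68%. Since the P0.5 lists were shorter, the strongest 58592 peaks of each list were also compared. The members then had 17 regions in epithelium at E14.5 only (27.9%) and 10 at P0.5 only (16.4%), where all regions had 27.0% and 22.4%. In fibers they had 34 (52.3%) and 6 (9.23%), where all regions had 40.5% and 33.0%. Sox11 was then not alone in epithelium: it had 2 regions at P0.5 only and 0 at E14.5 only, and Sox3 had 1 and 0.

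**Figure D4:**
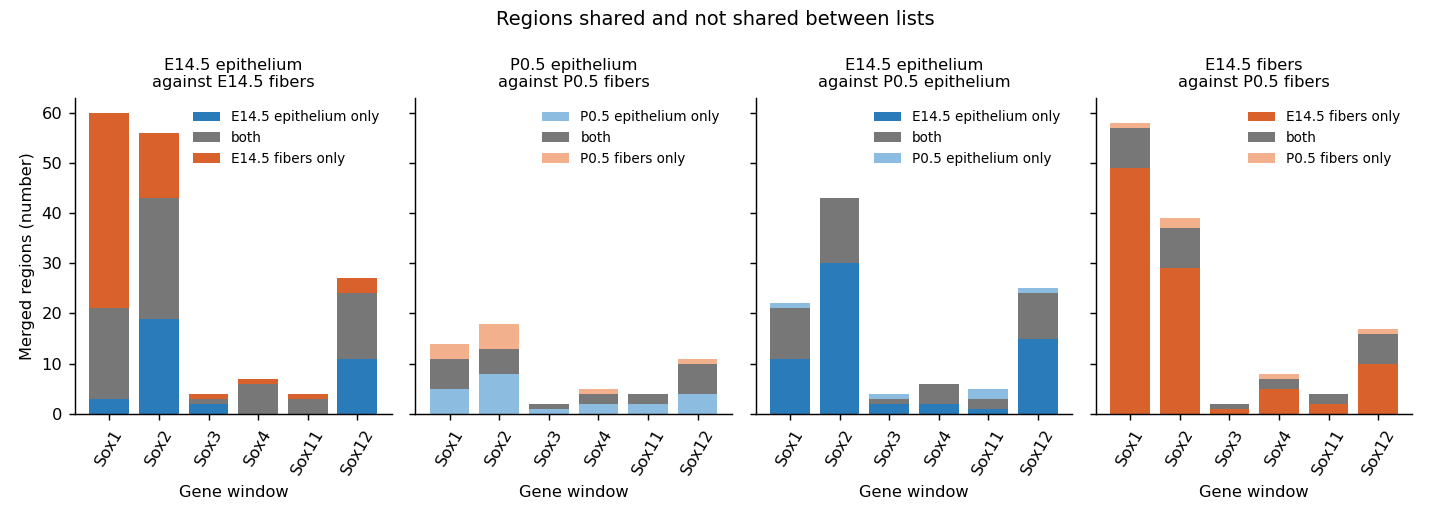
Number of merged regions in each gene window called in the first list only, in both or in the second list only, for the 4 pairs of lists. In the panel of both E14.5 tissues Sox1 has 39 regions in fibers only and 3 in epithelium only, and Sox12 has 3 and 11.

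At the promoters, all 6 members had a peak within 2 kb of the start in every list, where at E14.5 70.3% of 21000 coding genes had one in epithelium and 71.2% in fibers, and at P0.5 67.0% and 64.6%. Sox12 was first among the members in both epithelium lists and Sox1 in both fiber lists, and Sox3 was last in each. All 3 SoxC promoters ranked better in epithelium than in fibers at both stages. Rank percents depend on the length of a list, and the coding genes with a promoter peak, whose median was 7.68% in epithelium and 6.10% in fibers of E14.5 and 12.8% and 10.3% at P0.5, give a scale that moves with it. By that scale 27.4% of them were ahead of Sox4 in E14.5 epithelium and 49.9% in the fibers, and at P0.5 13.7% and 50.6%. For Sox12 the shares ahead were 8.27% and 26.6% at E14.5 and 11.2% and 27.5% at P0.5, and for Sox11 36.9%, 49.9%, 27.9% and 58.9%. The SoxB1 promoters ranked better in fibers, all 3 at E14.5 and Sox1 and Sox3 at P0.5, whereas Sox2 ranked better in P0.5 epithelium. With peaks of q under 0.001 alone the order of Sox3 at P0.5 turned, at 34.2% in epithelium and 43.8% in fibers, and that of the median coding gene as well, at 14.7% and 19.1%. Sox2 ranked at 5.73%, 3.09%, 11.8% and 12.6%, and in the fiber lists 27.7% of coding genes were ahead of it at the embryonic stage and 54.5% at P0.5. The summits of Sox1 stayed within 20 bp of the start in all 4 lists. In P0.5 fibers the strongest promoter peak of Sox2, Sox4 and Sox11 had its summit inside the gene, 901, 1121 and 482 bp after the start, whereas in the other 3 lists it lay at -7 to -140 bp. As ranks are coarse, Sox4 and Sox11 shared rank 7552 in E14.5 fibers, and neighbours in this order were not tested against each other.

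**Figure D5:**
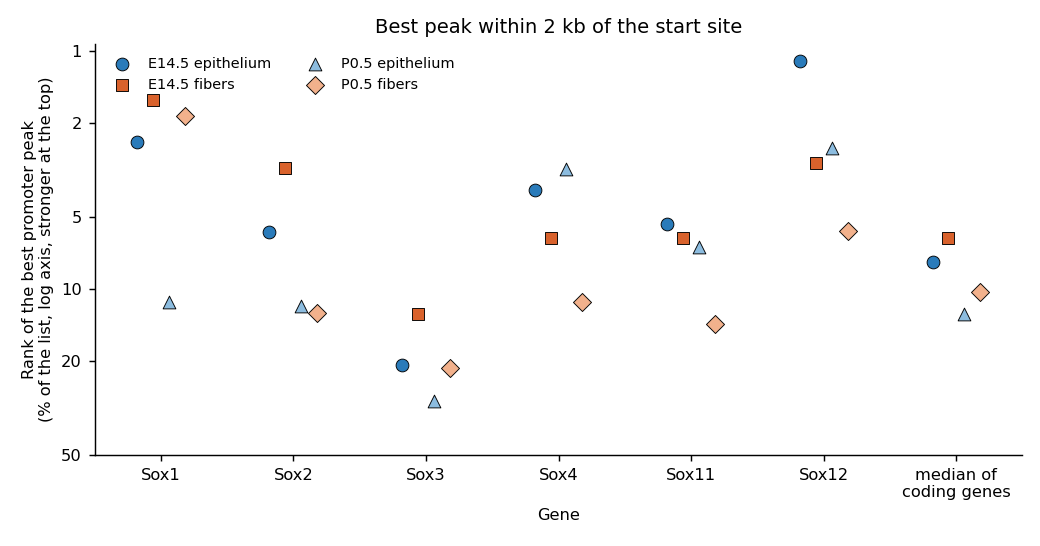
Rank of the best promoter peak of each gene in percent of the list, on a log axis with strong peaks at the top, and 1 symbol per list. The last column gives the median of coding genes with a promoter peak. Sox12 in E14.5 epithelium is highest at 1.10%, and Sox3 in P0.5 epithelium lowest at 29.6%.

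The letters at the summits were compared with those of all regions. Of the 165 regions, 49 held a Sox core within 200 bp around the summit (29.7%, 23.3% to 37.1%), where 24.8% of all regions did, so the interval holds the value of all regions. ACAAAG alone stood in 20.6% of the member regions (15.1% to 27.4%), where 15.9% of all regions held it, and in the 137 member regions at no promoter the share was 23.4% (17.1% to 31.1%), for which no value of all regions outside promoters was computed. ACAATG stood in 9.70% of the member regions and in 10.9% of all. Per gene the share with either core ran from 26.2% at Sox1 to 40.0% at Sox3, the latter 2 of 5 regions. GGAATG, the letters of Tead factors, stood in 21 of the 165 regions (12.7%, 8.48% to 18.7%), near the 13.7% of all regions. By gene it stood in 2 of the 56 Sox2 regions (3.57%, 0.985% to 12.1%), in 10 of the 61 Sox1 regions (16.4%) and in 7 of the 29 Sox12 regions (24.1%, 12.2% to 42.1%). TGANTCA, the letters of AP-1, stood in 4.24% of the member regions and 6.58% of all. The median GC content at the summit was 51.5% for the members and 53.0% for all regions. Letters were searched on both strands, and ACAAAG and ACAATG were counted once per region.

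The other 14 Sox genes of the family gave a wider range at the promoter. At E14.5 a promoter peak was present for 12 of them in epithelium and 13 in fibers, and at P0.5 for 12 and 11. Their median rank percents were 20.2%, 26.1%, 38.4% and 21.4%, and every member but Sox3 ranked better than these medians in all lists. The strongest of them were Sox8 in epithelium, at 7.17% and 14.6%, and Sox13 in fibers, at 7.16% and 5.69%. Sox13 also had the largest covered window of the 14 in E14.5 fibers, 18.8%, which is below that of Sox1 and Sox2. Weakest at E14.5 were Sox10 in epithelium at 68.5% and Sox17 in fibers at 71.6%, and at P0.5 Sox17 in epithelium at 86.7% and Sox14 in fibers at 69.2%.

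The genes most like a member over the 4 lists were sought by the rank of their best promoter or gene body peak. The search covered 14008 coding genes with such a peak in each list and used the largest difference in log10 rank percent. For Sox1 these were Msl2 and Gtf2i, at differences of 0.0566 and 0.0932. For Sox2 they were Serinc1 and Dxo, and Serinc1 lay 0.00549 away. Sox4 was closest to A930018P22Rik at 0.0178 and to Mib1. Sox3 was closest to Prrxl1 and Pwwp2b at 0.0458 each, Sox11 to Mmgt2 and Vrk2 at 0.0455 each, and Sox12 to Ifnar1 at 0.0461 and Cdk5 at 0.0862. Msl2 shared with Sox1 the low place in P0.5 epithelium, at 10.8%, beside 2.12%, 1.52% and 2.09% in the other lists.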

How the data were processed

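ATAC-seq libraries had been made from micro-dissected lens tissue, 2 for each stage and tissue. The authors trimmed paired-end reads (Trim Galore 0.4.1, per the labels), mapped them to mm10 with Bowtie2 2.3.3.1, removed mitochondrial and duplicated reads with SAMtools 1.2 and Picard 2.1.1, and used MACS2 2.1 to call peaks up to a q value of 0.05. The deposited lists, 1 per group, pool its libraries and hold no read counts, so depth, replicate spread and tests could not be had from them. In the deposited lists, fold enrichment is a ratio, that of reads at the summit to the background set by MACS2. The deposited -log10 p and -log10 q values come from the same calls. The peak names in the P0.5 lists say P1, and these lists were used as P0.5 by their titles. Within each list every fold enrichment went with 1 p value, so that both order the peaks alike, with 0 peaks of a different rank.

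Fold enrichment was ranked within each list, ties taking the lower rank. Peaks on the 21 placed chromosomes were merged at 10 bp with bedtools 2.31.1 and assigned to windows by an overlap of at least 1 bp, with RefSeq GRCm38.p6 genes and curated transcript starts. Between 57 and 90 peaks per list on unplaced scaffolds were left out of regions and windows. Sequences came from RefSeq, with pysam 0.24.0 and samtools 1.23.1. Intervals used scipy 1.17.1, other steps python 3.11.15, pandas 2.3.3, numpy 2.4.6 and matplotlib 3.10.9. Ranking, merging, covered bases, peak counts and the motif search were tested on simulated peaks. 0 columns stayed unassigned. The text names the 6 members, some of their best-ranked regions, overlapped genes, 2 most similar genes per member, the extreme other Sox genes and tissue markers. The members and lists were chosen with earlier results of these data known. Alternatives changed the threshold, the number of peaks, the flank, the merge distance, the promoter width, the ranking, the transcript set and the motif window.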

Additional observations from a re-analysis of the deposited data

Results flagged for a closer look

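The difference in covered share of the window between fibers and epithelium had one sign at E14.5 and the other at P0.5 for 4 of the 6 genes. In percentage points, fibers minus epithelium, it was 3.68 at E14.5 and -0.813 at P0.5 for Sox2. For Sox4 it was 0.933 and -2.01, and for Sox11 0.637 and -0.953. For Sox3 it was 0.135 and -0.0568. The change of sign was not tested, since each value came from 1 pooled list, and the median coding gene likewise had a fiber to epithelium ratio above 1 at E14.5 (1.43) and below 1 at P0.5 (0.939).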

How the results depend on the processing

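Of 304 values recomputed under the alternatives, 212 stayed within the interval of the share as reported, or within 1.5 times for counts and ranks, and 92 did not. The 212 include 24 ranks by p value, which could not differ. No paired analysis was possible because each group had 1 pooled list. With peaks of q under 0.001, the share of member regions called in E14.5 epithelium was 68.1%, where that of all regions rose to 59.3%, and the counts in 1 list only were 5 for P0.5 fibers beside P0.5 epithelium (11.9%, all regions 18.4%), 1 for P0.5 beside E14.5 in epithelium (1.08%, all regions 8.66%) and 2 in fibers (1.92%, all regions 6.68%). With equal numbers of peaks per list, 82 regions were left, of which 53.7% were called in P0.5 epithelium (all regions 45.6%, so that the members came to lie above them), 37.8% in P0.5 fibers (all regions 45.5%) and 22.0% in all 4 lists (all regions 16.4%). The counts in 1 list only were then 12 and 20 for epithelium and fibers at E14.5 (16.9% and 28.2%, all regions 20.6% and 24.8%), 17 and 10 for E14.5 and P0.5 in epithelium, and 34 for E14.5 in fibers. A flank of 10 kb left 47 regions, of which 76.6%, 85.1%, 46.8% and 36.2% were called in the 4 lists and 29.8% in all 4, each above the share of all regions (49.4%, 66.1%, 28.0%, 30.0% and 10.9%), so that P0.5 fibers went from below it to above it. Its counts in 1 list only were 5 and 9 at E14.5, 8 and 3 at P0.5, 15 and 1 in epithelium over time, and 24 and 1 in fibers. A flank of 100 kb gave 250 regions, with 88 in fibers only at E14.5, 42 and 21 at P0.5, 13 at P0.5 only in epithelium, and 147 and 14 in fibers over time. For both flanks the member shares of these counts were not computed. The shares of all regions, which do not depend on the flank, were 19.7% and 40.1% at E14.5 and 35.2% and 39.7% at P0.5. Over time they were 49.7% and 11.2% in epithelium and 62.6% and 17.6% in fibers. The covered share of a window moved by over 1.5 times in all 24 values with the flank of 10 kb (Sox1 in E14.5 fibers 84.2%) and in 13 with that of 100 kb (there 32.3%), and in none with equal numbers (33.3%) or q under 0.001 (43.3%). A merge distance of 100 bp gave 2 regions at P0.5 only in epithelium. In each pair of lists the list with more regions of its own stayed the same under these settings. The Sox core share was 11.5% in 100 bp around the summit and 47.9% over whole regions. Ranks by p value had to stay, since within each list every fold enrichment went with 1 p value. Promoters of 1 kb and all RefSeq transcripts left each of the 24 promoter rank percents as it was. Equal numbers moved 12 of them by over 1.5 times (Sox1 in E14.5 fibers to 3.38%) and q under 0.001 moved 6 (Sox2 in P0.5 fibers to 25.8%), and both kept the better-ranked tissue at each stage for every member except Sox3 at P0.5, which turned with q under 0.001. The lower P0.5 totals go with shorter lists, and without counts per library neither depth nor the spread between libraries could be weighed against any of these differences.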
